A study of Vitis x labruscana x Vitis vinifera with 36 samples.

Results

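The flesh of seeded 'Shine Muscat' berries was compared between the last 2 sampling stages of the series, stage 3 and stage 4. 'Shine Muscat' is a table grape, a hybrid of Vitis labruscana Bailey and Vitis vinifera L. The comparison takes the 6 seeded flesh libraries of these stages, 3 per stage, chosen by their labels from 36 RNA sequencing libraries, and spans all genes: of 30661 rows in the table of raw counts, 13639 had enough reads in flesh to be tested. The series samples flesh and skin of seeded and of seedless berries at stages 1, 3 and 4, which makes 12 groups of 3 libraries. All groups are of the same cultivar. The seeded berries are the ones the series title calls nontreated, and the seedless berries carry a treatment whose agent and dose the labels leave out. The dates, sugar content or softness that define the stages are not given either, so stage 4 is only known to be the later one. Whether a library was made from 1 vine, 1 bunch or pooled berries is not stated. The p-values therefore measure the spread between these libraries, which may be technical.

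Grape flesh, the pericarp tissue inside the skin, makes up most of the berry. During ripening its cells soften, import sugar into large vacuoles, lose malic acid, and in muscat types build up monoterpenes that give the floral aroma. The grape is a non-climacteric fruit, in which abscisic acid is held to promote ripening while auxin delays it. These statements are background. The deposited table gives gene identifiers with no names or functions, and no annotation was used here, so genes are given by identifier, no role is attached to any of them, and at most 2 identifiers that rose and 2 that fell are printed for each comparison. No sequence of a named gene is shown for the same reason.

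The 6 libraries were similar in depth and matched their labels. Totals in mega-reads (M) ran from 2.98 M to 4.10 M at stage 3 and from 2.76 M to 4.26 M at stage 4. On log2(CPM + 1), where CPM is the gene's reads per mega-read of its library, scaled by TMM (trimmed mean of M-values), Pearson correlations over the tested genes were 0.967 to 0.972 among stage 3 libraries and 0.969 to 0.974 among stage 4 libraries. Between the stages they were 0.913 to 0.937. Each of the 6 libraries had its highest correlation, over all 36, with a library of its own group. Carry-over of skin was followed with 134 genes that were at least 8-fold higher in skin than in flesh of seedless berries, which have no part in the comparison. Their summed level in seeded flesh was 1641, 1819 and 2044 CPM at stage 3 and 1182, 1526 and 1022 CPM at stage 4, against group means of 32730 and 26140 CPM in seeded skin. In the median these genes stood at 4.88% of their seeded skin level at stage 3 and at 5.30% at stage 4, and none of the 134 was at 0 in all 6 libraries. In flesh and in skin, every stage 4 library had a lower sum than every stage 3 library. In flesh this did not hold with raw library totals, where stage 4 replicate 2 had 1653 CPM and stage 3 replicate 1 had 1570 CPM. The part of skin RNA in the changes below was not tested.

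From stage 3 to stage 4, transcript levels shifted in 4317 of the 13639 genes tested, 31.7% of them. Of these, 1908 rose (14.0% of those tested) and 2409 fell (17.7%), by edgeR's quasi-likelihood test with Benjamini-Hochberg adjustment over all tested genes and a threshold of 0.05. At least 2-fold changes were called for 777 rising genes (5.70%) and 1086 falling genes (7.96%). At least 8-fold changes were called for 43 rising genes (0.315%) and 81 falling genes (0.594%). The median change was 0.89 log2 units among the genes that rose and -0.93 among those that fell, while over all tested genes it was -0.01. Levels are relative to the other transcripts of a library. In such bulk samples, fewer cells of a type and less RNA per cell cannot be told apart. How the calls divide between rises and falls depends on the scaling: with raw library totals in place of TMM, a setting added after the data were seen, 3162 genes rose and 1617 fell, and the median over all genes moved to 0.19 log2 units.

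**Figure D1:**
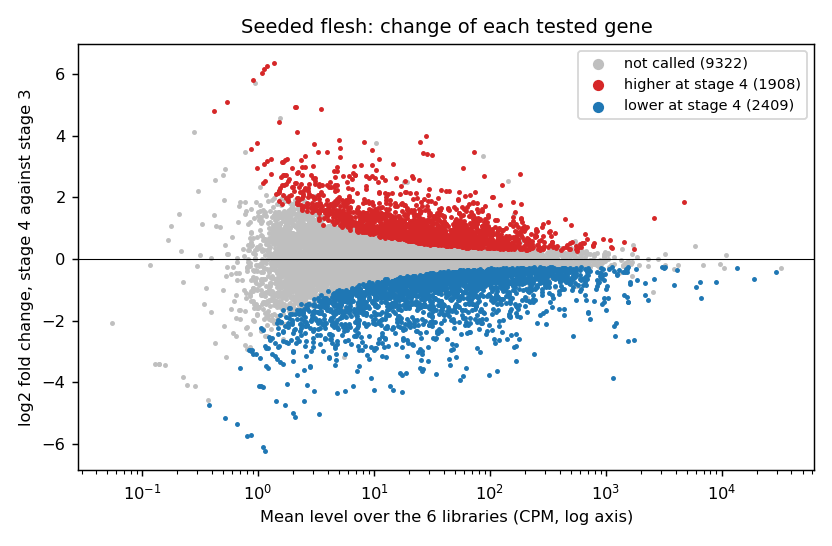
Each point is a gene tested in seeded flesh, placed by its mean level over the 6 libraries (CPM, log axis) and its log2 fold change from stage 3 to stage 4. The 1908 genes called higher are red and the 2409 called lower are blue, and above about 100 CPM the blue points outnumber the red ones.

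Falls outnumbered rises most among the genes with many reads. Of 242 genes with a mean of 500 CPM or more over the 6 libraries, 108 fell (44.6%) and 22 rose (9.09%). Of the 1619 genes between 100 and 500 CPM, 538 fell (33.2%) and 238 rose (14.7%). Between 20 and 100 CPM the directions were nearly even, with 953 falls and 925 rises among 4806 genes, and so they were between 5 and 20 CPM, with 554 and 530 among 4135. The median change was -0.25 log2 units in the highest class and 0.02 between 20 and 100 CPM. Classes set by the level in seedless flesh, which was not part of the contrast, gave a like picture; this was added after the data were seen. In the class of 500 CPM or more 46.7% fell and 8.20% rose. With raw library totals these shares were 31.6% and 20.9%, and in the class from 20 to 100 CPM 13.6% fell and 30.8% rose, so that rises outnumbered falls there. From 100 to 500 CPM the balance turned as well, from 35.0% falls and 13.4% rises to 20.6% and 26.5%.

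**Figure D2:**
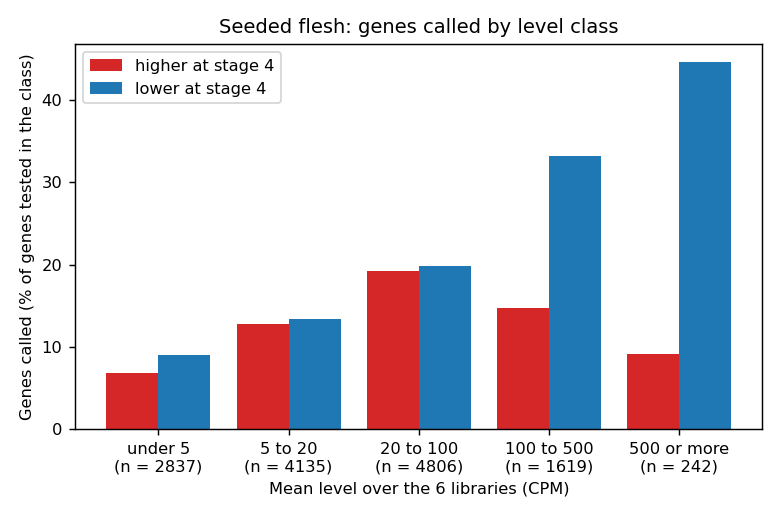
Bars give the percent of tested genes called higher (red) or lower (blue) at stage 4 in seeded flesh, in 5 classes of mean level over the 6 libraries; n is the number of genes in a class. The share called lower reaches 44.6% in the highest class, while the share called higher is largest, at 19.2%, between 20 and 100 CPM.

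Reads were spread over more genes at stage 4. The 100 genes with the most reads in each library took 32.92%, 33.50% and 33.25% of all reads at stage 3 and 29.61%, 29.56% and 30.22% at stage 4. No library of one stage reached the range of the other (33.2 ± 0.29% against 29.8 ± 0.37%, SD, n = 3; two-sided exact permutation p = 0.1, the smallest that 3 against 3 libraries allow). This share needs no scaling. It was lower at stage 4 in seedless flesh as well, at 29.09%, 29.42% and 29.06% against 26.99%, 27.22% and 26.40%. At an equal depth of 2764834 reads, stage 3 libraries held 16041 to 16189 detected genes and stage 4 libraries 16292 to 16410 (two-sided exact permutation p = 0.1). As a description of the genes called by the same contrast, those that fell held 42.5% to 43.3% of the reads at stage 3 and 28.2% to 31.2% at stage 4. Those that rose went from between 8.02% and 8.23% to between 15.0% and 16.2%.

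The same few genes led at both stages. Of the 20 genes with the most reads at each stage, 17 were shared, and the first 4 kept their ranks. The gene with the most reads at both had 40460, 29180 and 37440 CPM at stage 3 and 26050, 31180 and 30510 CPM at stage 4. The libraries of the stages overlapped, and the change of -0.29 ± 0.18 log2 units (SE) did not pass the test (edgeR adjusted p = 0.26). The second at both stages, whose identifier shares its stem, had 32440, 34450 and 33710 CPM and then 26250, 21570 and 27180 CPM. Its libraries did not overlap, and its change was -0.42 ± 0.15 log2 units (edgeR adjusted p = 0.04; range over alternatives, DESeq2 included, up to 0.25). That call was lost without stage 3 replicate 1, 2 or 3 (edgeR adjusted p = 0.081, 0.13 and 0.088) and without stage 4 replicate 1 or 2 (0.071 and 0.17). It was also lost with relative log expression scaling (0.071), with no filter on low counts (0.16) and with DESeq2 (0.058).

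Among the 20 leading genes of stage 4, 8 had fallen and 2 had risen, beside 17.7% and 14.0% of all genes tested and 44.6% and 9.09% of those of 500 CPM or more. The 2 were singled out after their values were seen. The higher of them had 1738, 2505 and 2021 CPM at stage 3 and 6094, 8380 and 7816 CPM at stage 4. With no overlap between the stages its rise was 1.83 ± 0.20 log2 units (SE), from rank 38 to rank 8 (edgeR adjusted p = 4.6e-06). Of the genes with identifiers neighbouring that of this first riser, only the 3 among the 20 leaders of either stage were looked at, and none of the 3 passed the test. Their changes were -0.31 ± 0.22, -0.18 ± 0.12 and 0.42 ± 0.17 log2 units (edgeR adjusted p = 0.32, 0.24 and 0.059). Whether these neighbours share reads could not be assessed. The second of the 2 rose by 1.33 ± 0.24 (edgeR adjusted p = 0.00097), from 1235, 2119 and 1064 CPM to 2725, 4541 and 3857 CPM, again with no overlap. The gene next to it by identifier ranked 15 at stage 3 and 17 at stage 4, and was called lower. Its mean went from 4690 to 3618 CPM, a change of -0.37 log2 units (edgeR adjusted p = 0.0062). Shared reads could not be assessed here either. In seedless flesh the first riser rose by 0.65 ± 0.20 (edgeR adjusted p = 0.037) and the second riser had 0.21 ± 0.24 (0.64).

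The genes with the largest changes were taken from those with enough reads to measure them. Genes eligible to be named passed the test, averaged 5 CPM or more and had no overlap between the stages: 1610 that rose and 2016 that fell. Over all tested genes, without regard to test or level, the stages did not overlap in 2742 that were higher (20.1%) and 3091 that were lower (22.7%) at stage 4. Among the 1610 eligible genes the 10 largest rises ran from 3.29 to 3.98 log2 units and started from 0.789 to 12.4 CPM at stage 3. VIT_19s0014g04790 had 3.10, 4.92 and 1.82 CPM at stage 3 and 48.9, 46.9 and 61.7 CPM at stage 4. Its stage 4 libraries all lay far above those of stage 3, with a rise of 3.98 ± 0.29 log2 units (SE), or 15.8-fold (edgeR adjusted p = 2.1e-13). VIT_02s0025g02600 had 0.258, 0.985 and 2.18 CPM and then 13.0, 19.6 and 13.0 CPM, a rise of 3.80 ± 0.66 (edgeR adjusted p = 0.00014). Its size rests on few stage 3 reads. Without stage 3 replicate 3, the highest of them, it was 4.62, and without stage 3 replicate 1, the lowest, it was 3.24.

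Among the 2016 eligible genes the 10 largest falls ran from -4.31 to -3.79 log2 units. Their stage 3 means ran from 10.6 to 2153 CPM and their stage 4 means from 0.558 to 148 CPM. VIT_07s0005g04130 had 34.6, 32.2 and 32.7 CPM at stage 3 and 1.89, 2.70 and 0.663 CPM at stage 4. The stage 3 libraries were close to each other and all above stage 4, and the change was -4.31 ± 0.32 log2 units (edgeR adjusted p = 3.1e-13). VIT_13s0019g03090 had 12.4, 9.52 and 9.82 CPM and then 0, 1.01 and 0.663 CPM, a change of -4.29 ± 0.54 (edgeR adjusted p = 6e-08). Without stage 4 replicate 1, which held no read of it, the change was -3.67. All 10 of these genes were also called lower in seedless flesh and in seeded skin, in ranges of -4.88 to -1.51 and -4.23 to -0.91 log2 units; over all tested genes 9.14% and 15.4% were called lower there. The difference between the seeded and the seedless change was called for 7 of them, beside 4.07% of all genes. Of the 10 largest rises, 8 were called higher in seedless flesh (5.39% over all genes) and 7 in seeded skin (13.5%), and the difference from seedless flesh was called for 5. The genes were picked on their seeded values, which also enter that difference.

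**Figure D3:**
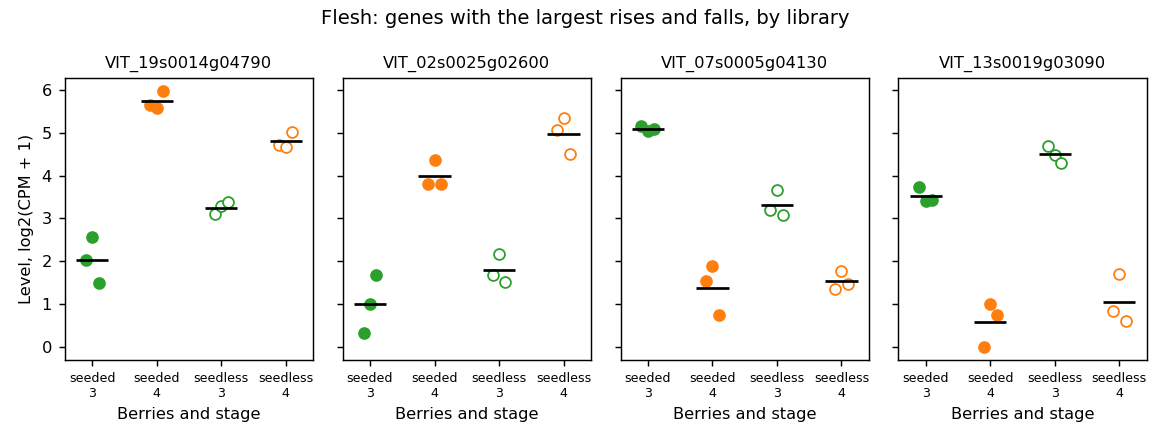
Points are the flesh libraries of seeded (filled) and seedless (open) berries at stage 3 (green) and stage 4 (orange), on log2(CPM + 1), and bars are means of 3 libraries, for the 2 largest rises and the 2 largest falls in seeded flesh among called genes that averaged 5 CPM or more and had no overlap between the stages. In all 4 genes the seedless means move in the same direction.

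Some transcripts appeared or disappeared at this depth. The 3 libraries of stage 3 held 10400559 reads together, and those of stage 4 held 11004435. Of 30661 rows, 1363 had no read at stage 3 but at least 1 at stage 4, and 1050 had reads at stage 3 only. Most of these held few reads: 11 of the former and 4 of the latter held 20 or more. The tested gene with the most such reads had 0 reads in each stage 3 library and 7, 16 and 5 reads at stage 4. Taking 3 reads over the group as the limit that a count of 0 allows, it was at least 8.82-fold higher at stage 4 on raw library totals (edgeR adjusted p = 0.00079). Another, below the filter and not tested, had 12, 7 and 9 reads at stage 4 and 0 at stage 3. In the other direction the leading gene had 11, 8 and 4 reads at stage 3 and 0 in each stage 4 library, at least 8.11-fold lower (edgeR adjusted p = 0.00014). It had 37 reads in the much shallower stage 1 libraries. The next, not tested, went from 9, 5 and 8 reads to 0. Counts are reads, not independent molecules, so these limits cover only the counting error of the 0. They take the reads of the other stage as counted, on raw library totals and not on the TMM scale of the p-values.

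Some genes called lower followed each other in the order of the tested identifiers. With untested identifiers passed over, 21 stretches of 4 or more successive tested genes were called lower throughout, 111 genes in all. Another 3 stretches, of 4 genes each, were called higher throughout. Over all tested genes 17.7% were called lower and 14.0% higher. How many stretches these shares alone would give was not worked out. The longest falling stretch had 15 tested genes among 21 identifiers of the stem VIT_12s0057, all lower by 0.37 to 3.02 log2 units with a median of -1.90. Their summed level was 1051, 1741 and 1332 CPM at stage 3 and 406, 423 and 490 CPM at stage 4, with no overlap. The next had 10 genes of the stem VIT_11s0052, whose sum was 680, 734 and 874 CPM and then 378, 196 and 254 CPM. After it came 9 genes of the stem VIT_19s0014, with 661, 657 and 712 CPM and then 425, 345 and 362 CPM. These stretches were found by the calls of the contrast itself, so their direction is a description with no test. Neighbouring numbers often mark copies of a gene, and reads could be split or shared among such copies. At stage 1 the sums were 1150 ± 286, 694 ± 160 and 834 ± 74.1 CPM (SD, n = 3), beside stage 3 sums of 1375 ± 347, 762 ± 100 and 677 ± 30.9 CPM.

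**Figure D4:**
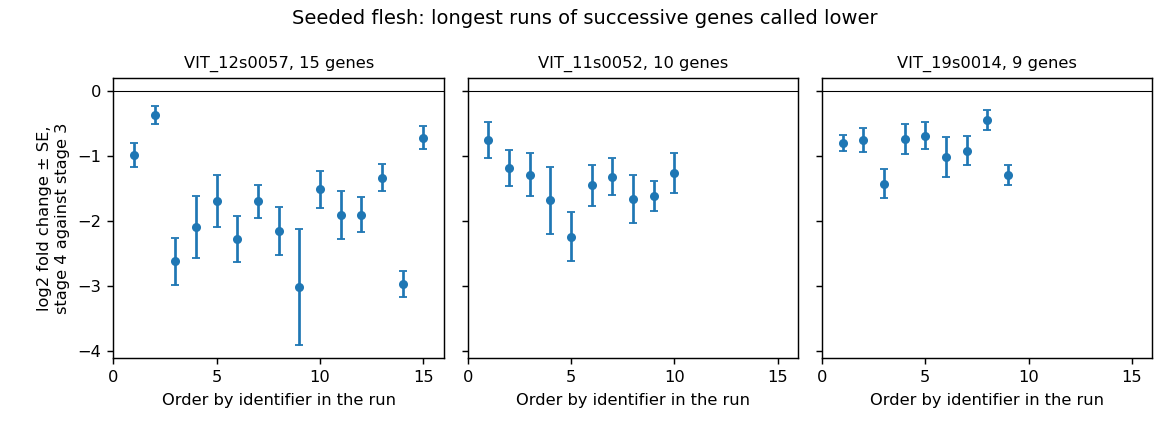
Points are log2 fold changes from stage 3 to stage 4 in seeded flesh, with bars of 1 SE, for the members of the 3 longest stretches of successive tested genes that were all called lower, in identifier order. Values in the stretch of 15 genes run from -3.02 to -0.37, and those of the stretches of 10 and 9 genes from -2.24 to -0.76 and from -1.42 to -0.44.

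The change in seeded flesh was then set against that in seedless flesh over the same stages, which shares no library with it. Seedless flesh had 1982 calls (14.5%), with 735 genes that rose (5.39%) and 1247 that fell (9.14%). Of the seeded rises 540 were called in seedless flesh too, 28.3% of the seeded and 73.5% of the seedless list. Of the falls 930 were, 38.6% of the seeded and 74.6% of the seedless list. In the opposite direction 8 of the seeded rises and 7 of the seeded falls were called. Genes that rose in seeded flesh by a median of 0.89 log2 units had a median of 0.38 in seedless flesh, and genes that fell by a median of 0.93 had a median of -0.44 there. Since genes were picked on their seeded values, the seeded medians are the more favoured ones. Across all 13639 genes the changes had a Pearson r of 0.63 and a Spearman rho of 0.61; genes are not independent replicates.

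A measure that does not pick genes by their change also gave the larger change to seeded flesh. The root mean square change over 9307 genes that averaged 10 CPM or more, built from products of independent library differences on log2(CPM + 1) so that noise cancels, was 0.656 log2 units in seeded flesh. Leaving out 1 library at a time gave 0.629 to 0.694. In seedless flesh it was 0.474 (0.451 to 0.491), and these ranges did not overlap. It was 0.618 (0.597 to 0.649) in seeded skin and 0.464 (0.450 to 0.481) in seedless skin. The earlier step in seeded flesh, from stage 1 to stage 3, measured 0.533 (0.501 to 0.555), with 0.61 M to 1.25 M reads in each stage 1 library. No test between these values was made, and the ranges, which share most of their libraries, are not error intervals.

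The difference between the seeded and the seedless change was itself tested gene by gene. It was called for 555 genes (4.07%), 240 with a higher value in seeded flesh (1.76%) and 315 with a lower (2.31%). By their fitted signs, 129 of the 555 were higher at stage 4 in both kinds of berry and more so in seeded, and 219 were lower in both and more so in seeded. In 18 both were lower, seedless more so, and in 0 both were higher, seedless more so. A further 93 were higher in seeded and lower in seedless flesh, and 96 the reverse. These are fitted signs and not calls. The number called depended on single libraries. It was 366, 287 and 353 without seeded stage 4 replicate 2, seeded stage 4 replicate 3 and seeded stage 3 replicate 3. Without seedless stage 4 replicate 1 or 2 it was 301 and 329, and without seedless stage 3 replicate 1 or 3 it was 354 and 340. It was 378 without seeded stage 3 replicate 1, 499 without seedless stage 4 replicate 3 and 447 without seedless stage 3 replicate 2. Higher counts came without seeded stage 4 replicate 1 (625) and without seeded stage 3 replicate 2 (626). With no filter on low counts it was 675, and with DESeq2 735.

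**Figure D5:**
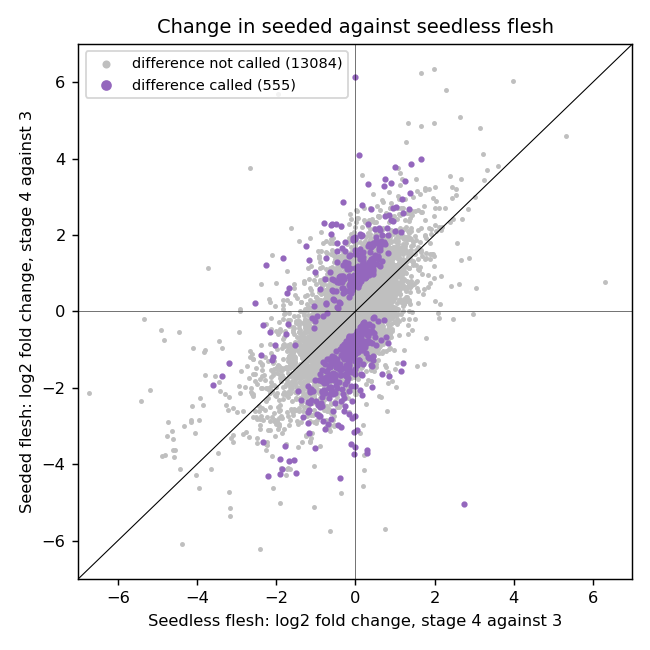
Each point is 1 of 13639 genes, placed by its log2 fold change from stage 3 to stage 4 in seedless flesh (x axis) and in seeded flesh (y axis); the diagonal marks equal change. The 555 genes whose changes differed by the test of the difference are purple; of these, 129 lie above and 219 below 0 on both axes with the larger change on the seeded axis.

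VIT_08s0007g04180 had the largest such difference towards a seeded fall among genes that averaged 5 CPM or more. It had 33.6, 25.6 and 45.8 CPM at stage 3 and 2.36, 3.37 and 2.43 CPM at stage 4 in seeded flesh. In seedless flesh it had 41.3, 36.4 and 43.9 CPM and then 65.5, 45.2 and 38.4 CPM, so that the seedless stages overlapped and the seeded did not (difference -3.98 ± 0.43 log2 units, SE; edgeR adjusted p = 1e-06). VIT_03s0063g01760 was much the same: 43.9, 66.3 and 82.6 CPM and then 2.60, 6.41 and 5.52 CPM in seeded flesh. Its seedless libraries had 34.9, 39.7 and 33.7 CPM and then 46.4, 40.4 and 19.5 CPM (difference -3.71 ± 0.42; edgeR adjusted p = 7.8e-06). VIT_02s0087g00600 rose in seeded flesh from 1.03, 1.31 and 1.09 CPM to 7.33, 9.45 and 8.84 CPM. In seedless flesh it had 7.54, 7.27 and 5.76 CPM at stage 3 and 5.74, 5.79 and 4.88 CPM at stage 4 (difference 3.19 ± 0.56; edgeR adjusted p = 0.00029). The seeded libraries lay below all seedless ones at stage 3 and above all of them at stage 4. VIT_03s0038g04580 rose in seeded flesh from 2.07, 1.97 and 2.55 CPM to 13.2, 11.5 and 7.51 CPM, while its seedless libraries held 4.37, 4.17 and 7.20 CPM and then 6.001, 2.83 and 2.09 CPM (difference 2.88 ± 0.59; edgeR adjusted p = 0.0025).

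Of the stretch of 15 falling genes with the stem VIT_12s0057, 1 was called lower in seedless flesh, with a median of -0.39 log2 units there against -1.90 in seeded flesh. The difference between the changes was called for 7 of the 15. In seeded skin 12 of the 15 were called lower, with a median of -1.54. For the 10 genes of VIT_11s0052, 8 were called lower in seedless flesh with a median of -1.35, and the difference was called for 0 of the 10. In seeded skin 6 of these 10 were called lower, with a median of -0.72. Of the 9 genes of VIT_19s0014, 3 were called lower in seedless flesh (median -0.58) and 7 in seeded skin (median -0.55). The difference from seedless flesh was called for 1 of the 9. Over all tested genes, 9.14% were called lower in seedless flesh, 15.4% in seeded skin, and 4.07% for the difference. The stretches were chosen on the seeded libraries, which also enter the difference, so these counts are a description.

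Many genes changed in the same direction in flesh and skin of seeded berries. In a fit of all 36 libraries with 14841 genes tested, skin had 28.8% of its genes called, 13.5% higher and 15.4% lower. In that fit 1183 genes rose in both tissues, 58.8% of those that rose in flesh and 59.2% of those that rose in skin. In the same fit 1465 fell in both, 60.4% and 64.3%. Whether the tissues came from the same berries is not stated. The difference between the tissues' changes was called for 262 genes (1.77%), 74 with a higher value in flesh (0.499%) and 188 with a lower (1.27%). Without seeded flesh stage 4 replicate 2 it was called for 174, and with no filter on low counts for 473. With only the compared libraries fitted it was called for 254, and for 407 once a term for the replicate number was added. Of the 262, 84 were lower in flesh and higher in skin by their fitted signs, 45 were the reverse, and 81 were lower in both and more so in flesh. Both were higher in 17 with the larger value in flesh and in 23 with the larger in skin, and both were lower in 12 with the larger fall in skin.

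VIT_17s0000g09800 moved in opposite directions in the tissues. In flesh it had 88.2, 95.4 and 127 CPM at stage 3 and 49.5, 33.1 and 30.1 CPM at stage 4, on the scale of the fit of both tissues. In skin it had 27.4, 32.4 and 35.4 CPM and then 251, 263 and 231 CPM. Neither tissue's stages overlapped, and the difference was -4.42 ± 0.38 log2 units (SE; edgeR adjusted p = 1.3e-07). VIT_08s0058g01210 was the reverse, with 11.5, 11.7 and 24.0 CPM and then 50.4, 92.9 and 73.0 CPM in flesh, against 363, 464 and 453 CPM and then 135, 140 and 163 CPM in skin (difference 3.75 ± 0.44; edgeR adjusted p = 1e-05). VIT_13s0019g04460 rose in flesh from 0.255, 0 and 4.66 CPM to 14.1, 22.4 and 16.5 CPM, while skin held 20.3, 10.03 and 14.1 CPM and then 8.41, 10.02 and 14.3 CPM (difference 3.95 ± 0.81; edgeR adjusted p = 0.0061). Stage 3 replicate 3 held most of its early flesh reads, and without that library the difference was 7.04. Without flesh stage 3 replicate 1 the difference was 3.34 (edgeR adjusted p = 0.033). VIT_03s0063g01760, which fell in seeded but not detectably in seedless flesh, had 14.7, 15.6 and 16.7 CPM and then 9.74, 15.5 and 14.5 CPM in seeded skin, where the stages overlapped (difference -3.53 ± 0.42; edgeR adjusted p = 4.9e-07).

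The earlier step in seeded flesh, from stage 1 to stage 3, is given beside the later one; both use the stage 3 libraries, so their values are not independent. In that step 1232 genes rose (9.03%) and 1180 fell (8.65%), 2412 in all (17.7%). Each stage 1 library held only 0.61 M to 1.25 M reads, so this count is not comparable with that of the later step. Falls outnumbered rises in the earlier step with relative log expression scaling (1054 rises, 1313 falls) and with DESeq2 (1075 and 1534). With only the libraries of stages 1 and 3 in the fit, 1500 genes were called. VIT_09s0002g06680 fell at both steps, with 227, 165 and 134 CPM at stage 1, 25.6, 14.4 and 38.2 CPM at stage 3 and 2.36, 2.02 and 0.221 CPM at stage 4. No stage overlapped another, and the steps were -2.74 ± 0.27 and -4.12 ± 0.41 on the log2 scale (edgeR adjusted p = 2.3e-08 and 8.2e-09). Without stage 4 replicate 1 or 3 the later step was -4.72 or -3.53. VIT_03s0063g02360 had 362, 259 and 291 CPM, then 13.9, 14.4 and 28.4 CPM, then 2.84, 3.37 and 2.21 CPM, and its larger step was the earlier one, at -4.03 ± 0.21 against -2.74 ± 0.31 (edgeR adjusted p = 1.5e-15 and 1.8e-08).

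VIT_18s0041g00580 and VIT_06s0004g03370 rose over the stages from no read in the 3 stage 1 libraries. The former had 3.36, 1.97 and 1.09 CPM at stage 3 and 15.1, 19.2 and 10.4 CPM at stage 4, a later step of 2.70 ± 0.37 log2 units (SE; edgeR adjusted p = 5e-07). The latter had 1.81, 1.64 and 3.27 CPM and then 5.68, 11.5 and 8.18 CPM, a later step of 1.91 ± 0.45 (edgeR adjusted p = 0.001). The stage 1 libraries held 2573147 reads together, and 0 of these allow up to 1.17 CPM. On raw library totals, with the stage 3 reads as counted, the earlier rise was therefore at least 1.81-fold and 1.73-fold. Its calls (edgeR adjusted p = 0.032 and 0.038) were lost with DESeq2 (0.054 and 0.061) and without any single stage 1 library (for replicates 1, 2 and 3, 0.076, 0.058 and 0.13 for the former and 0.086, 0.067 and 0.14 for the latter). They were also lost without stage 3 replicate 1 for the former (0.092) and stage 3 replicate 3 for the latter (0.081). With only the libraries of stages 1 and 3 in the fit, neither gene was tested.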

How the data were processed

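RNA of flesh and skin was sequenced as Lasy-seq v1.1 libraries, per the labels' protocols, a method that primes on the poly(A) tail, so that reads lie near transcript ends. Per the submitters' processing notes, reads were processed with fastp 0.20.0, HISAT2 2.2.1 and featureCounts. The authors deposited raw read counts per gene, as whole numbers with no normalization; the build, annotation, strand setting and treatment of multiply mapped reads were not given in the sources used here. Copies of a gene, overlapping genes and antisense genes can therefore share or split reads. All 30661 rows (29971 VIT and 690 ENSRNA identifiers) were kept, 0 rows named no gene, and 0 per-sample columns lay outside the 36 samples.

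Groups and column matches come from the labels. The 18 flesh libraries (6 groups), or all 36 (12 groups) for flesh against skin, were fitted with edgeR 4.0.16 in R 4.3.3: filterByExpr (minimum count 10), TMM factors, robust dispersions and quasi-likelihood F-tests, adjusted by Benjamini-Hochberg over all genes of a contrast. A standard error is the log2 fold change over the square root of F. CPM are TMM-scaled, in the flesh fit unless said otherwise. In each of the 12 groups, pairs of libraries differed by at least 3.44 times the variance of counting alone (4.73 in the groups compared), so none was counted as a repeat.

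Genes named passed an adjusted p of 0.05 and 5 CPM, with no overlap of stages for the main contrast, in order of size; the gene lists by product could not be applied and at most 2 identifiers each way are printed per comparison, since identifiers carry no names. Members, lists and rules were chosen with earlier results of these data known. Alternatives were relative log expression and upper quartile scaling, raw totals, no filter, DESeq2 1.42.0, fits of only the compared groups, thinning, a replicate term and leaving out each library. The scripts were tested on simulated data.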

Additional observations from a re-analysis of the deposited data

Results flagged for a closer look

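Results were singled out where the change from stage 3 to stage 4 differed between kinds of berry or between tissues by the test of the difference itself. Seeded and seedless flesh differed in their change for 555 genes (4.07% of those tested), and seeded flesh and seeded skin for 262 (1.77%).

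Between seeded and seedless flesh the log2 differences (edgeR's quasi-likelihood test, adjusted p in brackets) were 3.19 for VIT_02s0087g00600 (0.00029), 2.88 for VIT_03s0038g04580 (0.0025), -3.98 for VIT_08s0007g04180 (1e-06) and -3.71 for VIT_03s0063g01760 (7.8e-06). Between seeded flesh and seeded skin they were 3.95 for VIT_13s0019g04460 (0.0061), 3.75 for VIT_08s0058g01210 (1e-05), -4.42 for VIT_17s0000g09800 (1.3e-07) and -3.53 for VIT_03s0063g01760 (4.9e-07). VIT_03s0063g01760 is in both lists. In each of these 7 genes the seeded flesh libraries of stage 3 did not overlap those of stage 4. Over all genes tested in flesh, the stages did not overlap in 20.1% that were higher and 22.7% that were lower at stage 4. The 7 genes were picked on differences that contain these same libraries, so the lack of overlap is a description. Groups of 3 are too small for a check of single outlying libraries.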

How the results depend on the processing

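For seeded flesh from stage 3 to stage 4 the number of genes called stayed between 3375 and 4779 under every alternative run, against 4317, and was 3375 to 3955 with 1 library left out. With raw library totals, 66.2% of the calls were rises, against 44.2% to 49.7% under TMM, relative log expression and upper quartile scaling and DESeq2. The seeded-against-seedless count ran from 287 to 626 with 1 library left out. With no filter on low counts it was 675, and with DESeq2 735. The flesh-against-skin count ran from 174 to 347 with 1 library left out. It was 473 with no filter on low counts and 392 with DESeq2. With only the compared libraries fitted, it was 254 without and 407 with a replicate block. The stage 1 to 3 count was 1500 with only the compared libraries fitted and 1569 with the replicate block added, which tested fewer genes, and 1872 to 2269 with 1 library left out. Among the named genes, 311 recomputed values kept their direction and side of the threshold, 19 lost the call and 0 reversed. Refits that did not test a named gene are not in this tally. For the stage 1 to 3 step, VIT_18s0041g00580 and VIT_06s0004g03370 were not tested with only the compared libraries fitted, with or without the block. The replicate number was not taken as a pairing, since deviations of same-numbered stage 3 and stage 4 libraries correlated at 0.131, 0.151 and -0.003. Between flesh and skin every library correlated best with its own number at both stages, a hint from the data and not the design, but 1 of the 6 correlations, at 0.072, was under 0.1. With only the compared libraries fitted, the block moved the main count from 3941 to 4260 and the seeded-against-seedless count from 629 to 671. Genes under about 5 CPM are limited by depth: in that class only changes of at least 2-fold were called.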

Other observations

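Calls in seeded flesh were spread over the whole set of chromosome numbers in the identifiers. Among numbers 1 to 19 the share of tested genes that rose ran from 11.5% (number 12) to 17.0% (number 9), and the share that fell from 14.2% (number 15) to 20.2% (number 18), beside 14.0% and 17.7% over all genes tested. Rows with ENSRNA identifiers took 0.304% to 0.455% of the reads at stage 3 and 0.123% to 0.379% at stage 4, ranges that overlapped; of 39 such rows tested, 7 were called higher and 1 lower, with a median of 0.34 log2 units. Of the 134 genes chosen for their higher level in seedless skin, 100 could be tested in flesh, and of these 5 were called higher and 20 lower from stage 3 to 4, with a median of -0.26 log2 units against -0.01 over all genes. The 3 stretches of successive genes called higher had 4 genes each; their summed levels went from 37.4 ± 8.11 to 71.9 ± 8.86 CPM, from 52.4 ± 4.40 to 100.4 ± 7.20 CPM and from 98.3 ± 0.385 to 175 ± 18.6 CPM (SD, n = 3).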
